A study of Homo sapiens with 54 samples.

Results

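The genes described here are 48 genes of mitosis and of the G2/M step of the cell cycle, followed in 9 established human cell lines before and after calcitriol, the hormonal form of vitamin D. A gene was measured where a probe set of the Affymetrix Gene 1.0 ST array carried its symbol alone, and the probe set with the highest mean stood for a gene with several. On this rule 47 of the 48 members were measured, of 18417 genes and 19460 probe sets with a single symbol. CENPA, the centromeric histone, was on a probe set shared with another gene and has no value here. BIRC5 was the 1 member with more than 1 probe set.

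The groups were untreated cells at 0 h and cells given calcitriol for 8 h or for 36 h, with 2 arrays per line and time, 54 arrays in all. The lines were the fibroblast lines Ag09319 and Ag09309, the liver tumour line HEP-G2, the leukaemia lines HL60 (promyelocytic) and K562 (chronic myeloid), and the lymphoblastoid lines GM07019, GM07348, GM10854 and GM12878, which are B cells immortalised with Epstein-Barr virus. No group carried a transgene or deletion made for the study, and each line stands for 1 donor or tumour. How much calcitriol was given is not stated in the labels. Cultures kept without calcitriol for 8 h or 36 h were not analysed, so calcitriol and time in culture cannot be told apart.

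Mitosis is driven by CDK1 bound to cyclin A or cyclin B, with the Aurora and Polo-like kinases acting at centrosomes, kinetochores and the spindle midzone. The anaphase-promoting complex then ends it by marking cyclins and securin for destruction. Most of these genes are transcribed together in late S and G2 phase and are silent in cells that have left the cycle. B-MYB and FOXM1, bound to the MuvB complex at a TTTGAA element called the cell cycle genes homology region, and the factor NF-Y, bound at CCAAT boxes, are known to switch them on.

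The promoters of 6 members are shown because they carry these elements in different arrangements and belong to genes on which the results turn. Each line gives 130 bases that end at the base before the transcription start, from RefSeq on GRCh38.p14, in the direction of transcription, and capitals mark TTTGAA and CCAAT on either strand (TTCAAA and ATTGG on the other strand).
CCNB2: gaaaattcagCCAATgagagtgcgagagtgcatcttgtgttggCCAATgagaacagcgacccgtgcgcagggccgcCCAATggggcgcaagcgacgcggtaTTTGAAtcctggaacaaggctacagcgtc
PLK1: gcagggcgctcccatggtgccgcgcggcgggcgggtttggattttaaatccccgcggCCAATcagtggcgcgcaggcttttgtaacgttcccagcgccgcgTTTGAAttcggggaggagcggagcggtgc
MKI67: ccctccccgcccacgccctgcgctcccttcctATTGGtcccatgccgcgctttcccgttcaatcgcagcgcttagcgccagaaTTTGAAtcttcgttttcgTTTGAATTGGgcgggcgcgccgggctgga
KIF11: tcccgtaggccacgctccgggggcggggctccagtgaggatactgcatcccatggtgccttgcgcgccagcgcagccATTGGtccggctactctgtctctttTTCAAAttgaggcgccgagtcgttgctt
NCAPG: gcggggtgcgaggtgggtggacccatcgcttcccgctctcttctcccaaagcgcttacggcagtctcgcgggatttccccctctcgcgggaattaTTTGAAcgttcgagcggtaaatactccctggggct
WDR62: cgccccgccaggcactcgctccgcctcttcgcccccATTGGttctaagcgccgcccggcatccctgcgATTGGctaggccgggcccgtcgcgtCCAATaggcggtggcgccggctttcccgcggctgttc
The CCNB2 stretch is chr15:59105016-59105145 (plus strand), PLK1 is chr16:23678759-23678888 (plus strand) and MKI67 is chr10:128126424-128126553 (minus strand). KIF11 is chr10:92593000-92593129 (plus strand), NCAPG is chr4:17810849-17810978 (plus strand) and WDR62 is chr19:36054767-36054896 (plus strand). CCNB2 has 3 CCAAT boxes before 1 TTTGAA, MKI67 has 2 of each, with 1 pair overlapping in a single run of capitals, NCAPG has TTTGAA and no CCAAT, and WDR62 has 3 CCAAT boxes and no TTTGAA in this stretch. The TTTGAA of CCNB2 and of PLK1 and the nearer one of MKI67 begin 29 bases before the start.

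A promoter entry of 300 bases, 250 before the start and 50 after it, was at hand for 40 of the 48 members. TTTGAA was present on either strand in 29 of them (72.5%) and in 18.1% of 27265 other genes. CCAAT was present in 31 (77.5%) against 39.7% of other genes, and both within 1 promoter entry in 22 (55%) against 7.19%. PLK4 has TTTGAA and CCAAT only in different entries and is not among the 22. Neither was found in CDCA5, CENPE and KIF2C. The motifs overlapped each other in 2 promoter entries of members, and a gene with several entries counted for a motif if any of them held it. AURKA, BIRC5, CDCA2, FOXM1, RACGAP1, TPX2, TTK and UBE2C are named only. These matches describe letters and are not binding sites.

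The mitosis genes were lower at 36 h than at 0 h in 3 of the 9 lines, and in the other 6 no member passed the test. The median member changed by -1.26 on the log2 scale in Ag09319 (2.40-fold lower), by -0.82 in HEP-G2 (1.77-fold lower) and by -0.78 in Ag09309 (1.71-fold lower), while over all probe sets the medians in these lines were 0.00, -0.02 and 0.03. In the other lines the members' median lay between -0.27 in GM07348 and 0.20 in HL60. In bulk RNA, fewer cycling cells and less mitotic RNA per cell cannot be told apart.

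Averaged over the 47 members, the log2 level in Ag09319 was 7.47 and 7.21 at 0 h, 7.31 and 6.22 at 8 h, and 5.98 and 6.26 at 36 h. In Ag09309 it was 7.04 and 6.94 at 0 h, 6.72 and 6.87 at 8 h, and 6.26 and 6.20 at 36 h. In HEP-G2 it was 6.72 and 6.17 at 0 h, 6.46 and 6.60 at 8 h, and 5.62 and 5.59 at 36 h. In each of these 3 lines both 36 h arrays lay below all 4 earlier arrays, except in Ag09319, where the second 8 h array lay between the 36 h arrays.

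**Figure D1:**
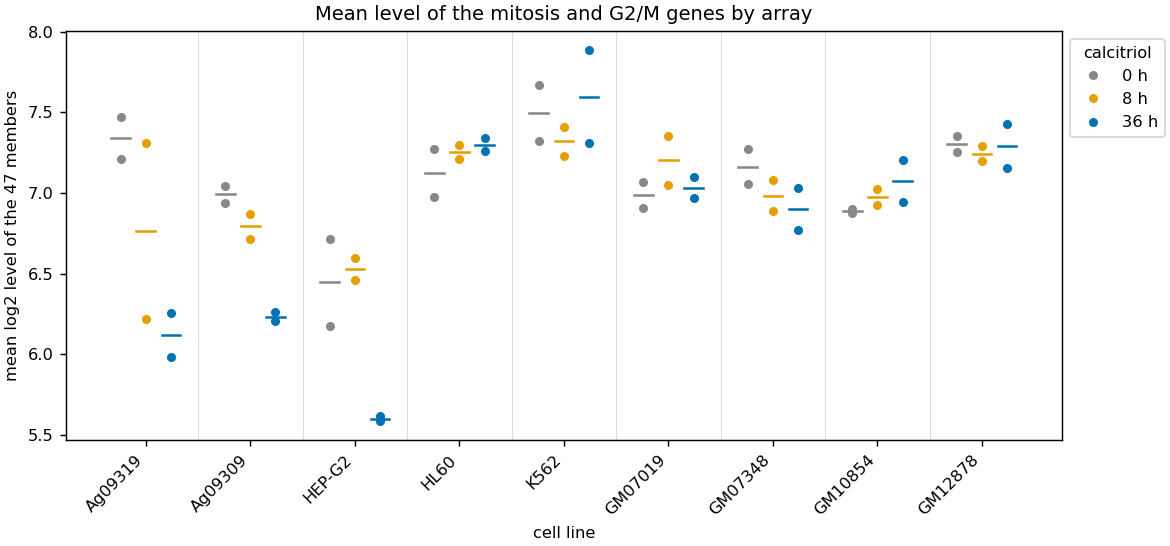
Mean log2 level of the 47 measured mitosis and G2/M genes on each array (points; y axis) by cell line (x axis), with 0 h, 8 h and 36 h of calcitriol from left to right within a line and bars at the mean of the 2 arrays. Both 36 h arrays of Ag09319 (5.98 and 6.26), Ag09309 (6.26 and 6.20) and HEP-G2 (5.62 and 5.59) lie below both 0 h arrays of their line. Those of GM07348 (7.03 and 6.77) also lie below its 0 h arrays (7.27 and 7.05), by less. In HL60, K562, GM07019, GM10854 and GM12878 the times overlap or lie slightly higher.

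Before calcitriol the mean of the members was highest in K562 (7.5), followed by Ag09319 (7.34), GM12878 (7.30), GM07348 (7.16), HL60 (7.12), Ag09309 and GM07019 (both 6.99), GM10854 (6.89) and HEP-G2 (6.45). From K562 down to GM07019 the arrays of each line overlapped those of the next line in this order. GM10854 lay just below GM07019, and HEP-G2, with 6.72 and 6.17, stood below all other lines. At 36 h the 2 fibroblast lines and HEP-G2 were the lowest, and none of their 36 h arrays exceeded 6.26, against 6.77 or more on every 36 h array of the other 6 lines.

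Each line carried the markers of its labelled cell type: fibroblast markers (8 of 8 measured) averaged 8.84 to 10.2 in the fibroblast lines and at most 5.01 elsewhere, and hepatocyte markers (7 of 7) 9.82 to 10.5 in HEP-G2 and at most 4.81 elsewhere. Promyelocyte markers marked HL60, erythroid markers K562 and B cell markers the lymphoblastoid lines in the same way. The exception was Ag09309 at 0 h. There the 6 measured B cell markers averaged 6.14 and 6.18, against 7.68 to 8.52 in lymphoblastoid lines and at most 5.49 in the remaining lines. Single arrays also stood apart from their line: the second array of Ag09319 at 8 h, the second of HEP-G2 at 0 h and the first of K562 at 36 h, with a correlation between the 2 arrays of 0.897, 0.954 and 0.970 where the median over groups was 0.987.

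In Ag09319, 45 of 47 members fell at 36 h, where 2.71% of all probe sets fell. The test was limma's moderated test in 1 fit of 27 groups to all arrays, two-sided, with Benjamini-Hochberg adjustment over 19460 probe sets at 0.05, and a change is given ± its standard error. That error is shared by all groups, each group has 2 arrays, and a p-value here reflects only how far these arrays differ, which the labels do not say are separate cultures. No member rose, where 1.78% of probe sets did. TTK, a spindle checkpoint kinase (-1.10, adjusted p = 0.19), and WDR62, a spindle pole protein (-0.49, adjusted p = 0.0686), did not pass. All 47 members had both 36 h arrays below both 0 h arrays, as had 21.3% of all probe sets. With only the 6 arrays of the line in the fit, 0 members passed limma's test, where 1 of 19460 probe sets was called in either direction. The median change was again -1.26. Such a fit leaves few degrees of freedom in every line. In Ag09309, where no array stood apart, it gave 31 calls among the members and 1073 among all probe sets. The cause of this difference was not tested. Leaving out the first 0 h array or the first 36 h array gave 23 calls each.

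All 7 cyclins, CDK1 and regulators fell in Ag09319. CDK1, the kinase that starts mitosis, had 4.72 and 5.0 at 36 h, against 6.79 and 6.33 at 0 h. CCNA2, cyclin A2, had 6.53 and 6.94 at 36 h, against 8.13 and 7.92 at 0 h. Both fell, CDK1 with a change of -1.70 ± 0.31 (adjusted p = 0.000335) and CCNA2 with -1.29 ± 0.23 (adjusted p = 0.000178), and the arrays of the 2 times did not overlap for either gene. The mitotic cyclins CCNB1 (-0.98) and CCNB2 (-1.18), the ubiquitin ligase subunit CCNF (-0.94), the CDK1-activating phosphatase CDC25C (-0.86) and the transcription factor FOXM1 (-1.14) also fell.

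Of the kinases, PLK4, which starts centriole duplication, had 4.59 and 4.91 at 36 h, against 6.41 and 5.97 at 0 h in Ag09319. Its groups did not overlap, and it fell, with a change of -1.44 ± 0.35 (adjusted p = 0.00858). PLK1, the main mitotic Polo-like kinase, had 6.94 and 7.05 at 36 h, against 8.39 and 8.19 at 0 h, and fell, with -1.29 ± 0.17 (adjusted p = 2e-06). AURKA (-1.10), the spindle pole kinase, and the chromosomal passenger proteins AURKB (-0.81), BIRC5 (-1.18) and CDCA8 (-1.0) fell as well, so that all 6 genes of this group passed.

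At the centromere and kinetochore 6 of 7 members fell in Ag09319. NUF2, a subunit of the NDC80 complex that holds microtubules, had 5.24 and 5.84 at 36 h, against 7.27 and 7.16 at 0 h. It fell, with a change of -1.68 ± 0.34 (adjusted p = 0.000942), without overlap. NDC80 (-1.26), the checkpoint kinases BUB1 (-1.30) and BUB1B (-1.15), the kinetochore motor CENPE (-1.32) and CENPF (-1.27) fell too. All 6 genes of sister separation and protein breakdown passed. PTTG1, securin, which holds separase in check, had 6.64 and 6.95 at 36 h, against 8.23 and 8.13 at 0 h, a change of -1.39 ± 0.17 (adjusted p = 7.69e-07). The groups lay more than 1 log2 unit apart. UBE2C and CDC20, which serve the anaphase-promoting complex, fell, with changes of -1.07 and -1.02.

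Of the 9 spindle and microtubule genes 8 fell in Ag09319. KIF11, the motor that pushes spindle poles apart, had 5.47 and 5.40 at 36 h, against 7.35 and 6.98 at 0 h, and with -1.73 ± 0.37 (adjusted p = 0.00219) its change was the largest of the 47 members. SPAG5, astrin, had 5.86 and 5.80 at 36 h, against 7.34 and 7.10 at 0 h, and fell, with -1.39 ± 0.22 (adjusted p = 3.2e-05). The 36 h arrays of both genes lay close together and well under the 0 h arrays. TPX2, which activates AURKA (-1.35), NUSAP1 (-1.36), DLGAP5 (-1.28), KIF15 (-1.28), ASPM (-1.27) and KIF2C (-0.92) made up the other 6 that fell.

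All 7 cytokinesis genes and all 5 mitotic chromosome genes fell in Ag09319. PRC1, which bundles midzone microtubules, had 7.66 and 7.94 at 36 h, against 9.27 and 9.07 at 0 h, a change of -1.37 ± 0.22 (adjusted p = 4e-05). Changes in the other cytokinesis genes ran from -1.35 in KIF23 to -1.11 in KIF20A. The chromosome genes had the lowest median of the 7 roles (-1.48). NCAPG, a condensin subunit, had 6.67 and 7.02 at 36 h, against 8.49 and 8.38 at 0 h, and NCAPH, its partner, 4.97 and 5.36 at 36 h, against 6.76 and 6.53 at 0 h. MKI67, which encodes the proliferation marker Ki-67, had 6.43 and 6.77 at 36 h, against 8.41 and 8.00 at 0 h. None of the 3 overlapped between groups, and all fell, NCAPG with a change of -1.59 ± 0.25 (adjusted p = 2.78e-05), NCAPH with -1.48 ± 0.21 (adjusted p = 8.33e-06) and MKI67 with -1.61 ± 0.25 (adjusted p = 2.39e-05). TOP2A (-1.30) and CDCA2 (-1.13) were the others.

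**Figure D2:**
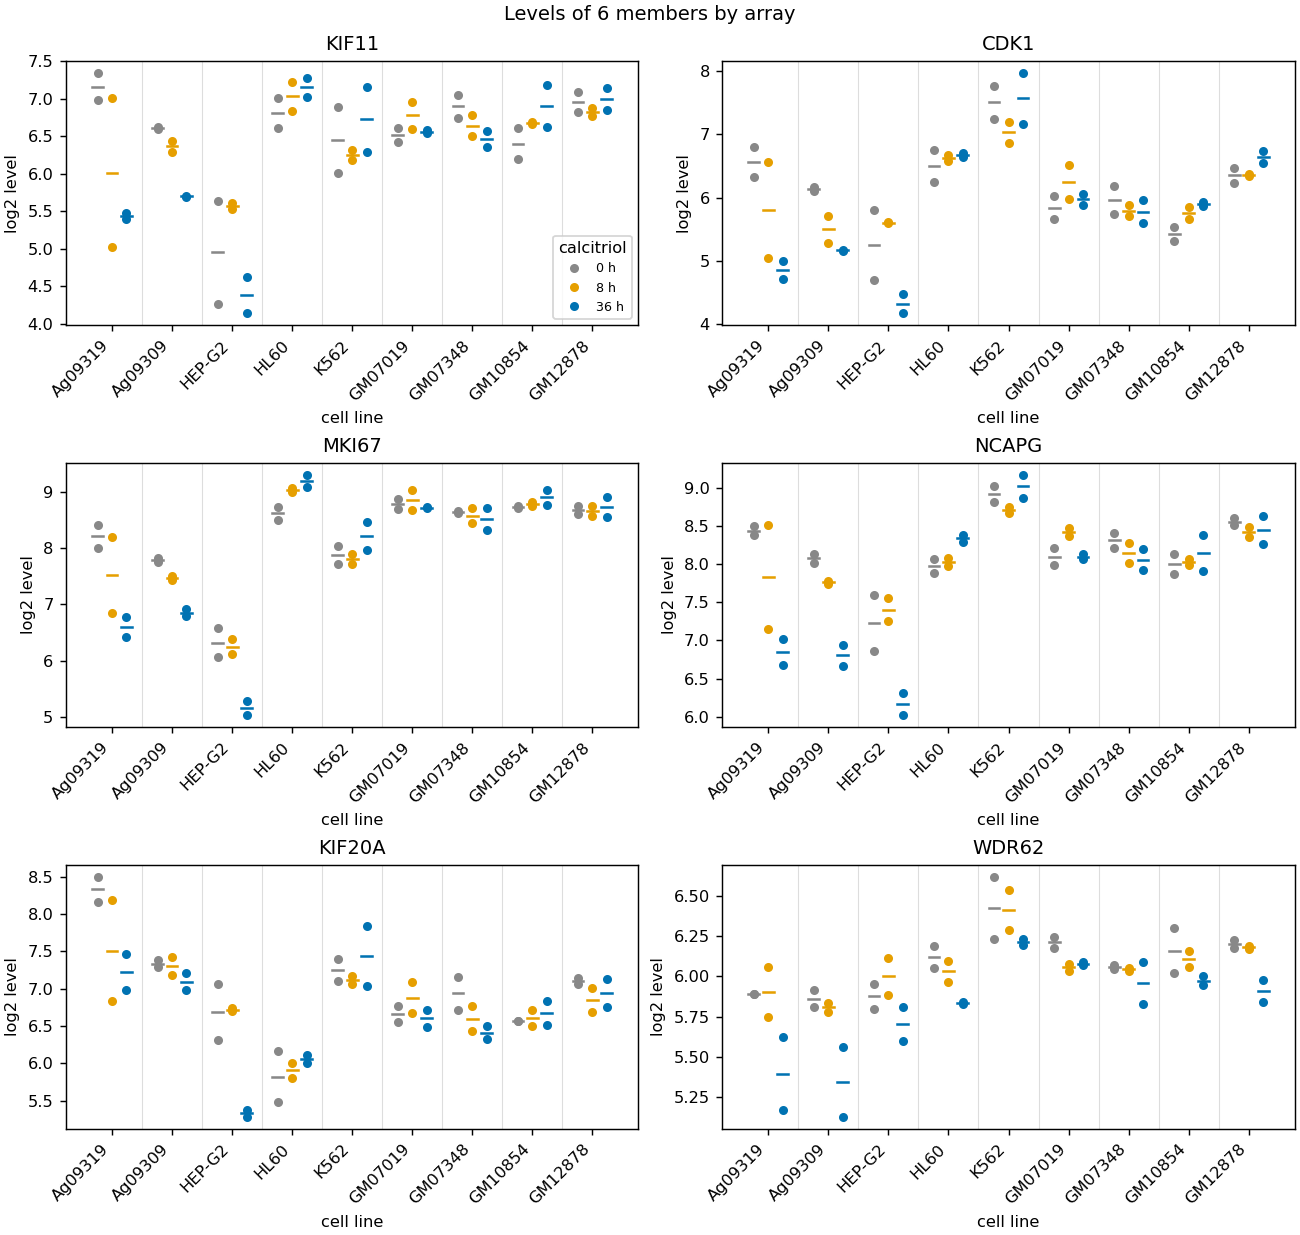
Log2 level of KIF11, CDK1, MKI67, NCAPG, KIF20A and WDR62 on each array (points; y axis, a different range in each panel) by cell line (x axis), with 0 h, 8 h and 36 h from left to right and bars at the mean of the 2 arrays. CDK1 at 36 h reads 4.72 and 5.0 in Ag09319, against 6.79 and 6.33 at 0 h. KIF20A lies lowest in HEP-G2 at 36 h (5.38 and 5.28), and WDR62 spans a narrow range in every line.

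At 8 h no member had passed limma's test in Ag09319 (0 of 47, where 0.324% of probe sets were called). At an unadjusted p under 0.05 there were 29 (61.7%), against 26.8% of all probe sets. The members' median was -0.58, but the 2 arrays disagreed: KIF11 had 7.01 and 5.02, and CDK1 had 6.56 and 5.05. Without the second array, which stood apart, the median was -0.05, and without the first it was -1.15. The second array also differed in lists unrelated to mitosis. Hepatocyte markers averaged 3.92 and 4.81 at 8 h, against 4.10 and 4.17 at 0 h. Fibroblast markers averaged 9.35 and 8.84 at 8 h, against 9.56 and 9.51 at 0 h. A lower level of the members at 8 h therefore rests on an array that stood apart in other genes too, and the cause was not tested. Between 8 h and 36 h 24 members fell (7.26% of probe sets fell), led by PTTG1 (-1.09 ± 0.17, adjusted p = 3.23e-05) and BIRC5 (-1.06 ± 0.16, adjusted p = 1.01e-05), with a median of -0.68. Without the second 8 h array these were 46 and -1.21. Leaving out the first 36 h array gave a median of -0.54. Array weights or the line's 6 arrays alone gave 0 members, where 107 and 4 probe sets were called in either direction.

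In HEP-G2, 22 of 47 members fell at 36 h, where 0.797% of all probe sets fell, and none rose, where 1.05% did. The 25 that did not pass ran from -1.14 in NUSAP1 (adjusted p = 0.0502) to -0.17 in WDR62. For 44 members the 36 h arrays lay below both 0 h arrays (16.5% of probe sets). Of the 3 that overlapped, KIF11, which fell most in Ag09319, had 4.63 and 4.14 at 36 h, against 5.64 and 4.27 at 0 h. CYP24A1, the calcitriol-induced enzyme that breaks calcitriol down, did not pass in HEP-G2 at 36 h (0.57). Its level there was already 6.78 and 6.14 at 0 h, against at most 3.75 on any 0 h array of another line. It read 7.37 and 7.70 at 8 h, where no probe set was called, and 6.98 and 7.07 at 36 h. CYP24A1 rose by 5.24 in Ag09319, by 6.08 in Ag09309, by 6.44 in HL60 and by 2.44 in K562. No mitosis gene passed in HL60 or K562, and a link between the responses was not tested. The CYP24A1 value of K562 rests in part on the 36 h array that stood apart: that array lay 3.51 above the 0 h mean and the other 1.38.

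All 5 mitotic chromosome genes fell in HEP-G2, with the lowest median of the roles there (-1.16). TOP2A, the topoisomerase that untangles sister DNA, had 7.01 and 6.94 at 36 h, against 8.45 and 7.82 at 0 h. MKI67 had 5.29 and 5.03 at 36 h, against 6.58 and 6.06 at 0 h, and CDCA2, which targets a phosphatase to chromatin, 5.12 and 4.6 at 36 h, against 6.22 and 5.85 at 0 h. These genes did not overlap between times, and their changes were -1.16 ± 0.28 (adjusted p = 0.0153) for TOP2A, -1.16 ± 0.25 (adjusted p = 0.0051) for MKI67 and -1.18 ± 0.24 (adjusted p = 0.00349) for CDCA2. NCAPG (-1.06) and NCAPH (-0.82) fell too.

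The largest change in HEP-G2 was that of KIF20A, a midzone motor needed for cytokinesis, with 5.38 and 5.28 at 36 h, against 7.06 and 6.31 at 0 h. It fell, with a change of -1.35 ± 0.29 (adjusted p = 0.00459), and PRC1 was the other cytokinesis gene of 7 that fell (-0.82). Of the 9 spindle genes 4 fell. DLGAP5, a microtubule-binding protein, had 5.31 and 5.01 at 36 h, against 6.66 and 6.17 at 0 h, TPX2 6.84 and 6.65 at 36 h, against 8.33 and 7.60 at 0 h, and SPAG5 5.31 and 5.42 at 36 h, against 6.82 and 6.34 at 0 h. Each was lower on both 36 h arrays than on both 0 h arrays. The changes were -1.26 ± 0.30 (adjusted p = 0.0175) for DLGAP5, -1.23 ± 0.27 (adjusted p = 0.00649) for TPX2 and -1.22 ± 0.22 (adjusted p = 0.000879) for SPAG5. KIF2C, a microtubule depolymerase, also fell (-0.77).

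CCNA2 had 6.81 and 6.76 in HEP-G2 at 36 h, against 8.17 and 7.66 at 0 h, and fell, with -1.13 ± 0.23 (adjusted p = 0.0028). CCNF was the other of 7 cyclins and regulators to fall (-0.62). CDK1 had 4.47 and 4.18 at 36 h, against 5.81 and 4.69 at 0 h (-0.93, adjusted p = 0.148). The 0 h arrays of CDK1 lay further apart than the distance between its lower 0 h array and the 36 h arrays. PLK1 (-1.09), AURKB (-0.83), CDCA8 (-0.78) and BIRC5 (-0.67) fell among 6 kinase and passenger genes. PTTG1 (-1.01), UBE2C (-0.93), CDC20 (-0.82) and CDCA5 (-0.73), which stabilises sister cohesion, fell among 6 genes of sister separation, and BUB1B (-1.07) was the 1 of 7 kinetochore genes to pass.

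The second 0 h array of HEP-G2 stood apart and had a lower mean of the members than the first (6.17 and 6.72). Without the 3 arrays that stood apart, this one among them, the members' median change in HEP-G2 was -1.16. With only the line's 6 arrays 0 passed limma's test, where 19 of 19460 probe sets were called in either direction. Array weights gave 14, where 168 probe sets were called, against 359 without weights. Without the first 0 h array 7 fell, without the first 36 h array 10 and without the second 5 (AURKB, CDC20, PLK1, SPAG5 and UBE2C). Against 8 h, a base chosen after the 0 h arrays were seen and sharing the 36 h arrays, 26 members fell (0.894% of probe sets fell) with a median of -0.98. All 47 lay below on both arrays, as did 25.7% of probe sets. DLGAP5, with 5.31 and 5.01 at 36 h, against 6.57 and 6.81 at 8 h, changed by -1.53 ± 0.30 (adjusted p = 0.00258). CDK1, with 4.47 and 4.18 at 36 h, against 5.61 and 5.60 at 8 h, changed by -1.28 ± 0.31 (adjusted p = 0.021). Leaving out the second 8 h array gave 6, the second 36 h array 8, the first 36 h array 15 and the first 8 h array 17, and the line's 6 arrays alone gave 1, DLGAP5. At 8 h against 0 h no member passed (0, with 0.0% of probe sets called by limma; also 0 at an unadjusted p under 0.05, where 2.47% of probe sets lay), and the median was 0.10.

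In Ag09309, 19 of 47 members fell at 36 h, where 2.26% of all probe sets fell, and none rose, where 2.65% did. All 47 had both 36 h arrays below both 0 h arrays (23.3% of probe sets). B cell markers moved with this comparison: 6 of 6 measured fell, their mean was 4.44 and 4.40 at 36 h, against 6.14 and 6.18 at 0 h, and MS4A1, which encodes CD20, had 3.10 and 2.85 at 36 h, against 8.15 and 8.07 at 0 h. Their part in the result was not tested. At 8 h the marker mean was 4.79 and 4.56. Between 8 h and 36 h the members' median was -0.60, 44 of 47 lay below on both arrays (20.5% of probe sets) and 3 fell (0.0874% of probe sets fell). No B cell marker was called there, which at that share does not set the 6 markers apart. Their mean was lower on both 36 h arrays than on both 8 h arrays.

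**Figure D3:**
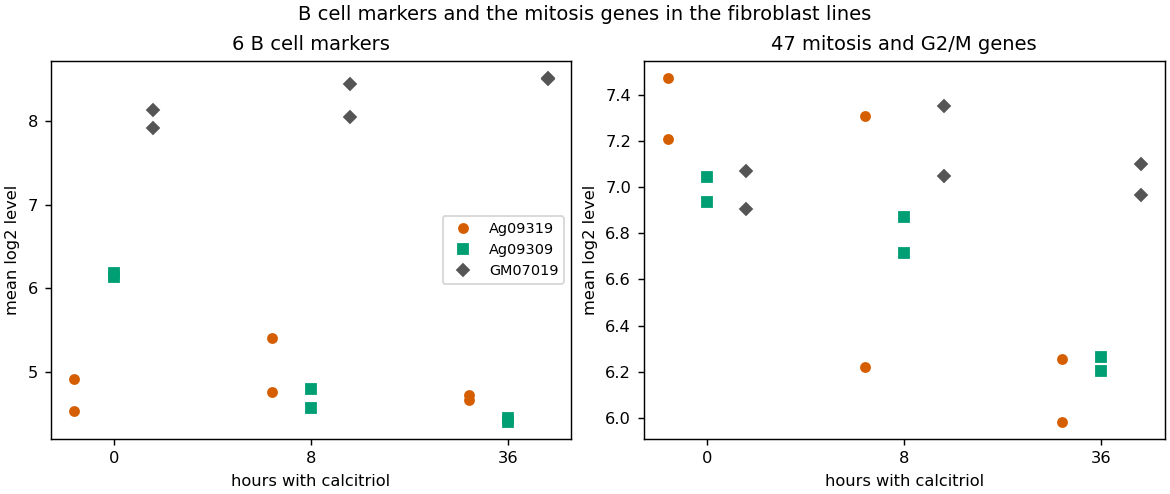
Mean log2 level (y axes) of 6 B cell markers (left) and of the 47 mitosis and G2/M genes (right) by hours with calcitriol (x axis) on each array of the fibroblast lines Ag09319 and Ag09309 and, for scale, the lymphoblastoid line GM07019. The markers in Ag09309 read 6.14 and 6.18 at 0 h, 4.79 and 4.56 at 8 h and 4.44 and 4.40 at 36 h, while the mitosis genes read 7.04 and 6.94 at 0 h, 6.72 and 6.87 at 8 h and 6.26 and 6.20 at 36 h.

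The largest called changes in Ag09309 were at the kinetochore and on chromosomes. NUF2 had 6.30 and 5.79 at 36 h, against 7.39 and 7.33 at 0 h, and NCAPG had 6.94 and 6.67 at 36 h, against 8.13 and 8.01 at 0 h. BUB1B, the checkpoint protein BubR1, had 5.49 and 5.32 at 36 h, against 6.70 and 6.57 at 0 h. All 3 were clear of the 0 h arrays by more than 1 log2 unit, with changes of -1.32 ± 0.34 (adjusted p = 0.0137) for NUF2, -1.27 ± 0.25 (adjusted p = 0.00081) for NCAPG and -1.23 ± 0.21 (adjusted p = 0.000136) for BUB1B. TTK had the lowest change of all (-1.33) but did not pass (adjusted p = 0.064). NCAPH had 5.39 and 5.28 at 36 h, against 6.40 and 6.38 at 0 h, and fell, with -1.05 ± 0.21 (adjusted p = 0.00135), as did TOP2A (-0.96) and MKI67 (-0.94).

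CCNA2 had 6.83 and 6.67 in Ag09309 at 36 h, against 7.78 and 7.84 at 0 h, and CCNB2, cyclin B2, had 6.95 and 6.64 at 36 h, against 7.94 and 7.73 at 0 h. AURKA had 6.87 and 7.03 at 36 h, against 7.90 and 7.93 at 0 h, and KIF14, a cytokinesis motor, 4.74 and 4.94 at 36 h, against 5.99 and 5.86 at 0 h. None of the 4 overlapped between times. Their changes were -1.06 ± 0.23 (adjusted p = 0.00272) for CCNA2, -1.03 ± 0.26 (adjusted p = 0.013) for CCNB2, -0.96 ± 0.24 (adjusted p = 0.0115) for AURKA and -1.08 ± 0.32 (adjusted p = 0.0414) for KIF14. AURKB, CDCA8, PLK1, CCNB1, CCNF, UBE2C, KIF2C, SPAG5 and WDR62 completed the 19. The members with the smallest changes were BIRC5, with 6.91 and 6.99 at 36 h against 7.11 and 7.10 at 0 h (-0.16), KIF20A (-0.24), FOXM1 (-0.25) and CDCA3 (-0.26).

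The 3 members that fell between 8 h and 36 h in Ag09309 were CCNF (-0.76 ± 0.16, adjusted p = 0.0178), UBE2C (-0.75 ± 0.15, adjusted p = 0.0133) and AURKB (-0.63 ± 0.14, adjusted p = 0.0261). AURKB had 6.35 and 6.11 at 36 h, against 6.91 and 6.82 at 8 h. Without the 3 arrays that stood apart, none of them of Ag09309, 20 fell against 8 h and 37 against 0 h. Calls in either direction over all probe sets were then 350 and 1658, against 74 and 955 with all arrays. Leaving out 1 of the line's own arrays gave 6 to 9 against 0 h where a 0 h or 36 h array was dropped. Against 8 h it gave 0 without either 8 h array or the first 36 h array, and 1, UBE2C, without the second. At 8 h no member passed limma's test against 0 h (0, with 1.53% of probe sets called; 3 at an unadjusted p under 0.05, where 7.12% of probe sets lay), and the median was -0.16. Dropping the 3 arrays that stood apart gave 1, CCNB2 (-0.59).

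Across the 3 lines 13 members fell in all of them: AURKB, BUB1B, CCNA2, CCNF, CDCA8, KIF2C, MKI67, NCAPG, NCAPH, PLK1, SPAG5, TOP2A and UBE2C. A further 14 fell in 2 lines and 19 in 1, and TTK in none. Of all probe sets 0.17% fell in the 3 lines, 0.658% in 2 and 3.94% in 1. The Ag09309 comparison is the one in which 6 of 6 B cell markers fell too. Across the 47 members, which are not independent, the change in Ag09319 had a Pearson correlation of 0.38 with that in HEP-G2 and of 0.37 with that in Ag09309, and HEP-G2 and Ag09309 had 0.13. KIF20A is an example, with -1.35 in HEP-G2, -1.11 in Ag09319 and -0.24 in Ag09309, and BIRC5 another, with -1.18, -0.67 and -0.16 in Ag09319, HEP-G2 and Ag09309.

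**Figure D4:**
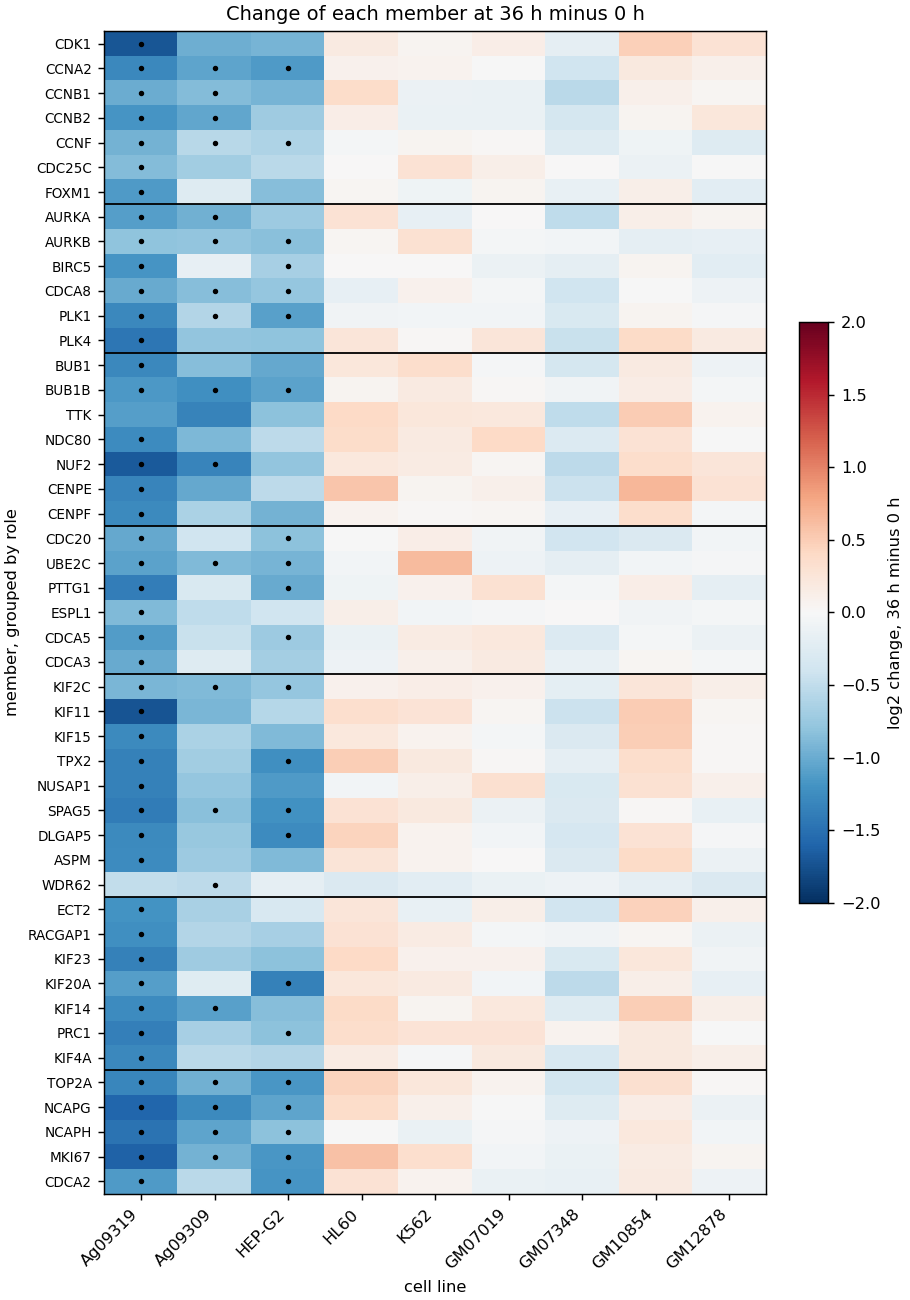
Log2 change at 36 h minus 0 h of each measured member (rows, grouped by role between black lines) in each line (columns), blue for lower and red for higher at 36 h, with a dot where limma's adjusted p was under 0.05. Dots fill the Ag09319 column except TTK and WDR62 (45 of 47), number 19 in Ag09309 and 22 in HEP-G2, and are absent from the other 6 lines.

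In the other 6 lines no member passed limma's test at 36 h (0 of 47 in each). At an unadjusted p under 0.05 there were 4 in GM07348 (8.51%, against 5.20% of all probe sets), 2 in K562 (4.26%, against 8.18%), 1 in HL60 (2.13%, against 7.23%) and 0 in GM07019, GM10854 and GM12878 (against 3.11%, 7.87% and 2.74%). The share of all probe sets called after adjustment was 0.118%, 0.0411%, 0.868%, 0.0514%, 0.0668% and 0.0514% in the same order. CDK1 in HL60 had 6.64 and 6.70 at 36 h, against 6.24 and 6.74 at 0 h. In GM12878 it had 6.73 and 6.54 at 36 h, against 6.47 and 6.23 at 0 h, and in both lines every 36 h value lay inside or above the 0 h range.

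In GM07348 the median was -0.27, 44 of 47 changes were below 0 and 29 members had both 36 h arrays below both 0 h arrays, against 13.1% of probe sets. CDC20 had the smallest p there (-0.38 ± 0.16, adjusted p = 0.823). In HL60, MKI67 had 9.08 and 9.30 at 36 h, against 8.5 and 8.73 at 0 h, and did not pass (0.58 ± 0.25, adjusted p = 0.527). In GM10854 the median was 0.17 and CDC20 had the smallest p (-0.28, adjusted p = 0.605). With that line's 6 arrays alone CENPE passed (0.67). PTTG1 led in GM07019 (0.31, adjusted p = 1) and WDR62 in GM12878 (-0.29, adjusted p = 1).

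In K562 the median was 0.09, and the first 36 h array, with a member mean of 7.89, stood apart from the second, with 7.31. Without it the median was -0.19. UBE2C, the ubiquitin-conjugating enzyme of the anaphase-promoting complex, had the smallest p in K562 (0.63 ± 0.15, adjusted p = 0.0992), and without that array it passed (0.89). At 8 h no member passed in any of these 6 lines by limma (0 each). At an unadjusted p under 0.05 there were 2 in GM07348, where 4.41% of all probe sets lay, 1 in HL60 (4.52%), 1 in K562 (4.84%), and 0 in GM07019 (3.64%), GM10854 (1.09%) and GM12878 (1.19%). The share of probe sets called at 8 h after adjustment was 0.00514% in GM07348, 0.236% in HL60 and 0.0% in K562, GM07019, GM10854 and GM12878.

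Whether a line's change at 36 h differed from that of the rest was tested as its change minus the mean change of the other 8 lines, in the same fit. Ag09319 differed in 35 members, all lower (2.14% of probe sets were lower), led by KIF11 (-1.64 ± 0.39, adjusted p = 0.0101) and CDK1 (-1.59 ± 0.33, adjusted p = 0.00263). Without its first 0 h array there were 9, and without its first 36 h array 11. HEP-G2 differed in 5, all lower (0.257% of probe sets): SPAG5 (-0.93), PTTG1 (-0.82), PLK1 (-0.80), UBE2C (-0.71) and AURKB (-0.62). That count was 2 without its first 0 h array, 1 without either 36 h array, 25 without the 3 arrays that stood apart and 0 with array weights.

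Ag09309 differed in 5, all lower (2.05% of probe sets): BUB1B (-0.99), NCAPG (-0.97), KIF2C (-0.73), UBE2C (-0.67) and AURKB (-0.57). Its 0 h arrays are those with the B cell markers. The count was 0 and 1 without its first and second 0 h array, 2 and 1 without its first and second 36 h array, and 15 without the 3 arrays that stood apart. K562 differed in UBE2C alone, which was higher (1.04 ± 0.16, adjusted p = 0.00155; 0.036% of probe sets were higher), and in 0 members without its first 0 h array. GM07019, GM07348, GM10854, GM12878 and HL60 differed in no member by limma (0 each), and 0.00514%, 0.0257%, 0.0103%, 0.0154% and 0.576% of probe sets were called. At an unadjusted p under 0.05 there were 6 members in GM07019 (12.8%, against 3.69% of all probe sets), 0 in GM07348 (against 5.38%), 24 in GM10854 (51.1%, against 6.84%), 3 in GM12878 (6.38%, against 2.92%) and 18 in HL60 (38.3%, against 6.62%). Without the 3 arrays that stood apart 14 were higher in GM10854 and 13 in HL60, where 200 and 263 probe sets were called in either direction. For these lines and K562 the mean of the others holds Ag09319, HEP-G2 and Ag09309, where members fell, so higher here need not be a rise. Against 0 h the members' median was 0.17 in GM10854 and 0.20 in HL60, with 0 calls in either.

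Over the 9 lines, with the line as the replicate, all 47 members had a mean change below 0 at 36 h, as had 46.2% of probe sets. The median was -0.28, and 1 member fell, WDR62 (0.0206% of probe sets fell). At an unadjusted p under 0.05 there were 29 (61.7%), against 13.9% of all probe sets. Without Ag09319 the median was -0.17. Sample titles were written in 2 styles. The median was -0.72 in the 3 lines of one, Ag09319, HEP-G2 and GM12878, and -0.06 in the 6 lines of the other. By limma 0 members were called in either. Of all 19460 probe sets 0 were called in the 3 lines and 29 in the 6, so this does not set the members apart. The titles of those 3 lines share a date, and those of the 6 carry none. What it dates is not stated. At 8 h no member passed by limma (0, where 0.0% of probe sets were called; 0 at an unadjusted p under 0.05, where 2.79% of probe sets lay). Between 8 h and 36 h none passed (0, where 0.37% of probe sets were called), and 13 had an unadjusted p under 0.05 (27.7%, against 19.6% of all probe sets), led by WDR62 (-0.24, adjusted p = 0.0629).

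WDR62, a centrosome and spindle pole protein, was the 1 member with a change below 0 in 9 of 9 lines, from -0.52 in Ag09309 to -0.10 in GM07348, and its change over the lines correlated least with the mean of the other members (0.59 over 9 lines, where the next lowest was 0.86 and the median 0.96). In HL60 it had 5.84 and 5.83 at 36 h, against 6.19 and 6.06 at 0 h, and in GM12878 5.84 and 5.98 at 36 h, against 6.23 and 6.18 at 0 h. In both lines the 36 h arrays lay below the 0 h arrays. Its mean change was -0.27 ± 0.06 (adjusted p = 0.0288), which reached adjusted p-values of 0.0972, 0.0791, 0.0744, 0.0714 and 0.0635 without GM12878, GM10854, Ag09309, HL60 and K562. In the 6 and the 3 lines of 1 title style it was -0.24 (adjusted p = 0.236) and -0.32 (adjusted p = 0.623). These correlations rest on arrays that all members share.

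In the 4 lymphoblastoid lines together no member passed limma's test at 36 h (0, where 1.14% of probe sets were called) or at 8 h (0, where 0.0257% were). At an unadjusted p under 0.05 there were 2 at 36 h (4.26%, against 14.7% of all probe sets) and 0 at 8 h (against 3.17%). The median was -0.01 at 36 h, 24 of 47 changes were below 0, and WDR62 had the smallest p (-0.18 ± 0.08, adjusted p = 0.297). The other 5 lines hold Ag09319, HEP-G2 and Ag09309, where members fell, and HL60 and K562, with medians of 0.20 and 0.09. Against the mean of these 5, which the falling lines lower, the lymphoblastoid change at 36 h was higher for all 47 members. The median difference was 0.53, and 60.2% of all probe sets had a difference below 0. None of these differences passed by limma (0, where 0.0154% of probe sets were called), and 21 had an unadjusted p under 0.05 (44.7%, against 7.53% of all probe sets). NCAPH had the smallest p (0.71 ± 0.22, adjusted p = 0.453).

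At 0 h the fibroblast lines were compared with the other 7. ECT2, the factor that activates RhoA for cytokinesis, was the 1 member that differed, with means of 7.73 in Ag09319 and 7.26 in Ag09309, against 6.14 to 6.94 in the other lines (0.97 ± 0.23, adjusted p = 0.0343; 6.69% of probe sets were higher). It was not called in 6 of the 9 fits that left out a line: GM07019, GM07348, GM10854, HL60, Ag09309 or Ag09319. Ag09319 exceeded Ag09309 at 0 h in 6 members (4.13% of probe sets were higher): PTTG1 (1.05), KIF20A (1.0), PRC1 (0.79), CDCA3 (0.66), CDC20 (0.63) and BIRC5 (0.55). PTTG1 had 8.23 and 8.13 in Ag09319, against 7.30 and 6.95 in Ag09309, whose 0 h arrays carried B cell markers. The count was 1, PTTG1, without the first 0 h array of Ag09319 or the second of Ag09309, and 3 without the first of Ag09309.

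The rest of the pathway was followed in lists of genes that are not members. Of 24 other centromere and kinetochore genes 17 fell in Ag09319 at 36 h, 3 in HEP-G2 and 2 in Ag09309, led in Ag09319 by CENPK (-1.80) and CENPI (-1.51). Of 22 other spindle and cytokinesis genes 18, 6 and 3 fell in the same order of lines. KIFC1, a minus-end motor, fell in all 3 (-1.46, -1.09 and -0.87). Of 8 other condensin and chromosome genes 6, 1 and 1 fell, and LMNB1, lamin B1, was among them in each line (-1.17, -0.97 and -0.97). Of 14 other genes of mitotic entry and exit 8, 3 and 1 fell, such as the kinase PBK in Ag09319 (-1.53) and CKS2, a CDK1 partner, in HEP-G2 (-1.30). No gene of these 4 lists rose in these 3 lines at 36 h against 0 h. Of all probe sets 2.71%, 0.797% and 2.26% fell in Ag09319, HEP-G2 and Ag09309, and 1.78%, 1.05% and 2.65% rose.

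Genes that act earlier in the cycle fell in the same lines. Of 25 DNA replication and G1/S genes 24 fell in Ag09319, 12 in HEP-G2 and 10 in Ag09309, with medians of -1.42, -0.74 and -0.58 beside -1.26, -0.82 and -0.78 for the mitosis genes. CCNE2, cyclin E2, fell in Ag09319 (-2.16 ± 0.30, adjusted p = 4.9e-06), as did CDC6, which loads the replicative helicase (-2.13 in Ag09319 and -1.21 in Ag09309), and MCM4, a helicase subunit (-1.72 in Ag09319 and -1.22 in HEP-G2). In the other 6 lines none of the 25 was called, where 0.0411% to 0.868% of all probe sets were, so this does not set the list apart.

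Among 17 regulators of the mitotic programme, MYBL2, which encodes B-MYB, fell in all 3 lines. It had 5.83 and 6.22 in Ag09319 at 36 h, against 7.36 and 7.14 at 0 h, 6.92 and 6.59 in HEP-G2 at 36 h, against 7.94 and 7.58 at 0 h, and 5.73 and 5.91 in Ag09309 at 36 h, against 6.70 and 6.72 at 0 h. The times did not overlap in any of the 3. Its changes were -1.22 ± 0.17 (adjusted p = 5.71e-06) in Ag09319, -1.01 ± 0.17 (adjusted p = 0.000452) in HEP-G2 and -0.89 ± 0.17 (adjusted p = 0.000734) in Ag09309. E2F7 (-1.47), RBL1 (-1.40) and E2F8 (-0.85) fell in Ag09319, and RBL1 (-0.88) and E2F8 (-0.66) in Ag09309. E2F4, the repressor of the quiescent complex, was called in no line, with changes of -0.39 to 0.12.

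CDK inhibitors hold cells back from division when they rise. Of 7 genes measured from this list, which includes CDKN3, none rose in any line at 36 h. Few probe sets rose at all (1.78% in Ag09319, 1.05% in HEP-G2 and 2.65% in Ag09309). In each other line at most 0.868% were called in either direction, so 0 of 7 does not set the list apart. CDKN1A, which encodes p21, ran from -0.19 in Ag09319 to 0.47 in K562 and was called nowhere. CDKN3, a phosphatase that acts on CDKs and is itself expressed with the mitosis genes, fell in Ag09319 (-1.25 ± 0.36, adjusted p = 0.0327).

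**Figure D5:**
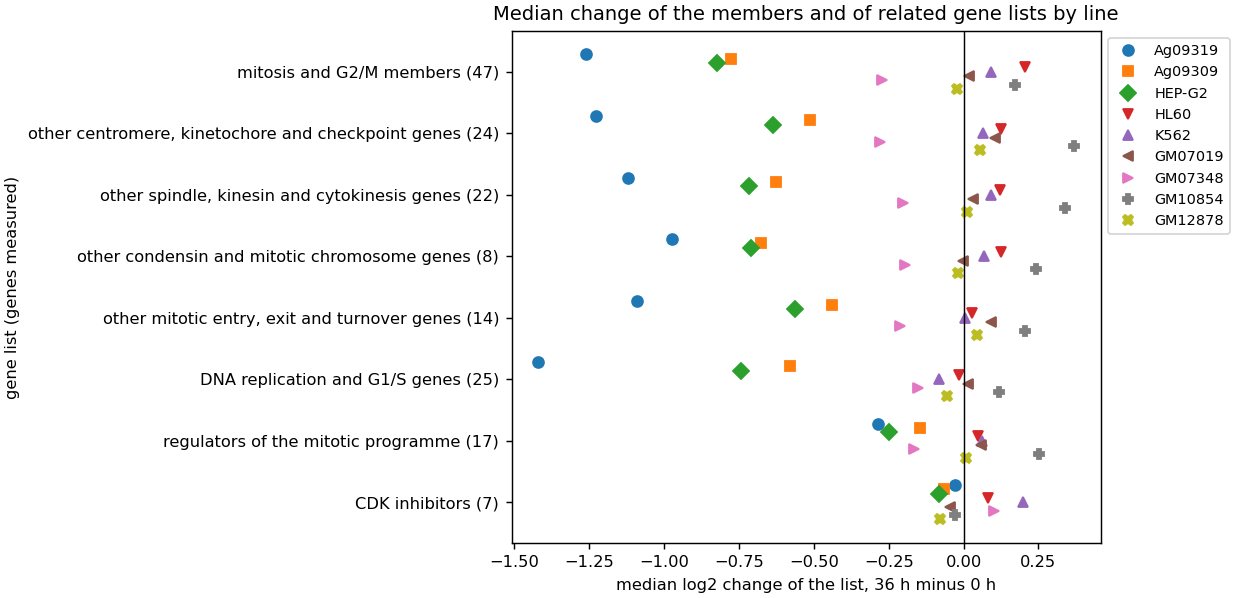
Median log2 change at 36 h minus 0 h (x axis) of the 47 mitosis and G2/M genes and of 7 related lists (rows, genes measured in brackets) in each of the 9 lines (symbols). For Ag09319, HEP-G2 and Ag09309 the medians of the mitosis genes (-1.26, -0.82 and -0.78) and of the DNA replication and G1/S genes (-1.42, -0.74 and -0.58) lie left of all other lines, while the CDK inhibitors of these lines lie near 0.

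The genes whose levels over the 27 groups most resembled the mean of the members, leaving out the members themselves, were DTL (Pearson correlation 0.96), FANCI (0.95), FBXO5 (0.94), WDHD1 (0.94), STIL (0.94), WDR76 (0.94), CENPK (0.93), KPNB1 (0.93), MTFR2 (0.93) and SGO1 (0.93). Of the 100 probe sets most like that mean, 22 were members, each of which is a part of it. The groups share lines and times, so these values describe the arrays and carry no test.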

How the data were processed

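Total RNA of each sample was labelled with the Affymetrix WT protocol, per the labels' protocols. The authors made the deposited log2 values with Affymetrix Expression Console 1.0 and RMA, per the submitters' processing notes. Whether all arrays were normalized together is not stated in the labels. Array medians were 4.98 to 5.31, and precision is limited by the number of arrays.

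Groups came from the cell line and time fields. The titles of GM10854 name another line, and the field was used. Of 33297 probe sets, 21214 were in the probe table, 1754 of them with several symbols, and 19460 with 1 symbol were tested without a filter on low values. Of these 19429 matched a gene ID of the RefSeq table. No detection calls were used.

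Single lines were tested with limma 3.58.1 in R 4.3.3 in 1 fit of 27 groups (27 residual and 8.89 prior degrees of freedom). For means over lines the 2 arrays were averaged and the line was a block (16 residual degrees of freedom for 9 lines). The fits were tested on simulated data. Tables and figures used Python 3.11.15, numpy 2.4.6, pandas 2.3.3 and matplotlib 3.10.9.

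Array values are given for up to 8 called members with the largest change in a comparison and at least 1 of each role, with the 3 smallest p-values considered where none was called. Of the other lists, the up to 4 called genes with the largest change, CDKN1A, MYBL2 and E2F4 could be named. The 36 h against 8 h comparison in single lines, WDR62 in single lines, genes shared by lines and low or unchanged members were chosen after their values were seen. The members and 13 lists (155 entries, 151 measured) were chosen with earlier results of these data known.

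Replicate numbers were not used as pairs: differences between the 2 arrays of a line correlated at -0.414 to 0.585 between times, and no label ties a number to a culture. The titles of Ag09319, HEP-G2 and GM12878 carry a date beside the number. It is the same for both numbers and all times, and what it dates is not stated. Alternatives were quantile normalization, array median centring, a filter at the 25th percentile, 1 probe set per gene, array weights, each line alone, a replicate block, title style, leaving out arrays or lines, and leaving out the 3 arrays that stand apart.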

Additional observations from a re-analysis of the deposited data

Results flagged for a closer look

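The change at 36 h differed between lines by the test of each line against the mean of the other 8 in 4 lines. In Ag09319 35 members differed, all lower. In HEP-G2 5 members differed, all lower, and in Ag09309 5, all lower, with the B cell markers of its 0 h arrays moving in the same comparison. In K562 1 member differed, UBE2C, which was higher than a mean that holds the lines where members fell. The cause of these differences was not tested.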

How the results depend on the processing

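None of the 193 calls on a member changed sign under the alternatives run for its comparison (2689 values). Of 38 counts of called members, 25 were 0, and 18 of these were 0 under all alternatives run. Of 70 results for named members 22 were called under every setting that kept all arrays or left out the 3 that stand apart, and 8 of them also with each array or line left out. The cause of the changes below was not tested. In brackets below are the probe sets, of 19460, called in either direction under that alternative. A number marked main is from the fit reported above. Fits of 1 line hold fewer arrays, and at 36 h against 0 h they lowered the count in Ag09319 and HEP-G2 and raised it in Ag09309.

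Over 9 lines at 36 h against 0 h, the 1 call (main 91) became 0 in the 6 lines of one title style (29) and 0 in the 3 of the other (0). It became 11 with single arrays and a replicate block (520). Between 36 h and 8 h, 0 (main 72) became 5 with that replicate block (424) and 1 after quantile normalization (50).

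For Ag09319 the 45 calls at 36 h against 0 h (main 874) became 0 with its 6 arrays alone (1). The 24 against 8 h (main 3506) became 0 with these (4) and 0 with array weights (107). Without the 3 arrays the members' median against 8 h was -1.21. The 35 against other lines (main 638) became 23 after median centring (540). For HEP-G2 the 22 against 0 h (main 359) became 14 with array weights (168) and 0 with its 6 arrays alone (19). Without the 3 arrays the members' median against 0 h was -1.16. The 26 against 8 h (main 322) became 1 with its 6 arrays alone (15). Its 5 against other lines (main 139) became 0 with array weights (47), 21 after quantile normalization (399) and 8 with the replicate block (156). Without the 3 arrays the members' median difference from the other lines was -0.84.

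For Ag09309 the 19 against 0 h (main 955) became 11 after median centring (1312) and 39 with array weights (2200). They became 31 with its 6 arrays alone (1073) and 37 without the 3 arrays (1658). Its 3 against 8 h (main 74) became 0 after centring (121), 13 with array weights (260) and 14 after quantile normalization (145). They became 1 with its 6 arrays alone (60) and 20 without the 3 arrays (350). Its 5 against other lines (main 772) became 1 after centring (1153) and 21 with array weights (1724). They became 8 after quantile normalization (978) and 15 without the 3 arrays (1383). At 8 h against 0 h its 0 (main 298) became 1 with array weights (640) and 1 without the 3 arrays (494). The 6 by which Ag09319 exceeded Ag09309 at 0 h (main 1499) became 10 with array weights (2444).

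Against other lines the 0 of GM10854 (main 2) became 14 with array weights (313) and 14 without the 3 arrays (200). The 0 of HL60 (main 112) became 5 with array weights (157), 7 after quantile normalization (193) and 13 without the 3 arrays (263). The 1 of K562 (main 11) became 0 with array weights (0). At 36 h against 0 h the 0 of GM10854 (main 13) became 1 with its 6 arrays alone (751). In K562 the members' median without the 3 arrays was -0.19. The replicate block changed no other count by over 1.5 times; the numbers were not treated as pairs.

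With 1 array or line left out, counts at 36 h against 0 h ran from 23 to 47 in Ag09319, 5 to 29 in HEP-G2, 6 to 18 in Ag09309 and 0 to 1 in K562 and over 9 lines. Against 8 h they ran from 12 to 46 in Ag09319, 6 to 28 in HEP-G2, 0 to 3 in Ag09309 and 0 to 1 over 9 lines. At 8 h against 0 h they also varied in Ag09319, where the members' median ran from -1.15 to -0.05. Against other lines they ran from 9 to 43 in Ag09319, 1 to 5 in HEP-G2, 0 to 5 in Ag09309 and 0 to 4 in K562, and at 0 h from 0 to 2 for the fibroblast lines and 1 to 7 for Ag09319 over Ag09309. The other counts stayed at 0.

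With 2 arrays a group, a p that misses the threshold does not show that a gene did not change, and levels well below the array medians cannot be told from background here.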
